A study of Mus musculus with 9 samples.

Results

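The endoplasmic reticulum (ER) chaperone and unfolded protein response genes are a list of 36 mouse genes, chosen by name for their roles in folding, secreting and degrading proteins of the ER. They were followed in splenic CD4+ T cells before and after a short activation at 2 temperatures. All 36 were found among the 55573 gene rows of the count tables. Of these, 35 passed the filter on low counts, as did 13328 genes in all. Derl3 was the member that did not pass.

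Secreted and membrane proteins enter the ER through the Sec61 translocon, are folded by Hsp70, Hsp90, lectin and disulfide isomerase systems, and are sent to the proteasome by ER-associated degradation when they fail to fold. Unfolded protein in the lumen is sensed by IRE1, ATF6 and PERK, whose signals raise transcription of chaperone and degradation genes. In lymphocytes the pathway is best known from plasma cells, which enlarge the ER to secrete antibody, and T cells also load it when they leave quiescence and begin to make cytokines and surface receptors.

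Messenger RNA was sequenced from 3 groups of 3 libraries of B6 mouse spleen cells, all sampled as CD4+ T cells. The first group was activated with anti-CD3 and anti-CD28 for 3 h in an incubator at 39 °C. The second had the same activation for the same time at 37 °C. The third was naive, that is harvested without activation. Whether the naive cells also spent time in medium is not stated, so time in culture and activation cannot be told apart against naive cells. The labels describe the cultured material as spleen cells and the sampled source as CD4+ T cells. Nor is it stated that replicates are different animals or cultures, and p-values therefore measure the spread between these samples, which may be technical.

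Depth was 12647692 to 17605549 counts a library, and T cell markers were present in every library. Cd4 lay between 598 and 628 CPM (each gene's count scaled to the size of its library) in the 6 activated libraries and between 729.9 and 848 CPM in naive ones, and Cd3e between 252 and 289 CPM throughout. Summed over 12 B cell markers, the level was 255 to 268 CPM at 39 °C, 241 to 250 CPM at 37 °C and 769.7 to 918 CPM in naive libraries, with none of the 12 at 0. Of 9 plasma cell markers, the sum without Pou2af1 was 1.68 to 2.16 CPM at 39 °C, 1.71 to 2.07 CPM at 37 °C and 17.4 to 22.5 CPM in naive libraries. Tnfrsf17 had no counts, Jchain reached 0.477 CPM in activated and 3.58 CPM in naive libraries, Mzb1 0.0795 CPM in activated and 0.21 CPM in naive libraries, and Sdc1 was under 1 CPM in every library. Pou2af1, which activated lymphocytes also express, was 92.6 to 103 CPM in activated and 26.7 to 30.9 CPM in naive libraries, and with it the plasma cell sum was lower in naive libraries (94.7 to 101 CPM at 39 °C, 100.4 to 104 CPM at 37 °C and 44.9 to 53.3 CPM in naive libraries). The 6 erythroid markers summed to 2.94 to 4.18 CPM at 39 °C, 2.80 to 3.22 CPM at 37 °C and 135 to 225 CPM in naive libraries. The summed markers of CD8 T cells (12.6 to 14.6 CPM at 39 °C, 13.5 to 15.1 CPM at 37 °C and 25.8 to 36.1 CPM in naive libraries), NK cells (at most 1.19 CPM at 39 °C and 0.715 CPM at 37 °C, at least 4.34 CPM in naive libraries), neutrophils (at most 0.318 CPM at 39 °C and 0.155 CPM at 37 °C, at least 1.69 CPM in naive libraries) and myeloid and dendritic cells (9.38 to 10.8 CPM at 39 °C, 7.45 to 9.37 CPM at 37 °C and 14.2 to 17.1 CPM in naive libraries) were also higher in naive libraries. Of the tested myeloid and dendritic cell markers, 5 were called lower and 1, Zbtb46, higher than in naive cells at each temperature. Zbtb46 lay at 5.58 to 7.16 CPM at 39 °C, 4.50 to 5.79 CPM at 37 °C and 1.05 to 1.65 CPM in naive libraries. It therefore narrowed the difference between the sums of that list. The part of these other cell types in the differences from naive cells was not tested. Fewer cells of a type and less RNA per cell cannot be told apart in bulk samples.

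The promoter sequences are shown first because the ER stress response element, the site known to be bound by ATF6 and XBP1 together with NF-Y, is what defines many of these genes as unfolded protein response targets. The element is CCAAT, a gap of 9 bases, then CCACG (ERSE), and its second form is ATTGG, a gap of 1 base, then CCACG (ERSE-II). Both were searched on both strands in the RefSeq promoter windows of GRCm38.p6, which run from 250 bases before to 50 bases after a start. The table held 30 of the 36 members. ERSE was found in 9 of them (30.0%), against 37 of 27025 genes (0.137%). ERSE-II was found in 2 members, Herpud1 and Dnajb11 (6.67%), against 12 genes (0.044%). The counts over all genes include the members. Because the members were chosen by name as genes of this pathway, their higher shares are a description and not an independent result. The windows around 11 of the matches follow, 5′ to 3′ on the strand of the gene, with both ends of the element in capitals. Ends reading CGTGG and ATTGG are the element on the other strand.
Hspa5, chr2:34772015-34772053, plus strand: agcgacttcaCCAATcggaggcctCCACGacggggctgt
Hsp90b1 first element, chr10:86705628-86705666, minus strand: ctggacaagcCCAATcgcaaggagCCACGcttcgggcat
Hsp90b1 second element, chr10:86705523-86705561, minus strand: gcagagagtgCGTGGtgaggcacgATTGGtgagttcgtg
Calr, chr8:84847065-84847103, minus strand: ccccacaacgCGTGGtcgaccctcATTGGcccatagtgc
Canx, chr11:50325790-50325828, minus strand: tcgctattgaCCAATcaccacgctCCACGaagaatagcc
Pdia6, chr12:17266481-17266519, plus strand: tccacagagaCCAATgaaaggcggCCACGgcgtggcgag
Creld2, chr15:88819510-88819548, plus strand: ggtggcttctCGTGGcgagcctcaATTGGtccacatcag
Dnajc3, chr14:118937817-118937855, plus strand: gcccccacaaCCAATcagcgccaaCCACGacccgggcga
Syvn1, chr19:6046522-6046560, plus strand: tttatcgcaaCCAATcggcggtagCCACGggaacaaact
Derl3, chr10:75893232-75893270, plus strand: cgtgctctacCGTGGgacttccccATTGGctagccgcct
Herpud1, chr8:94386367-94386397, plus strand: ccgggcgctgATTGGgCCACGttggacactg
Hsp90b1 carried 2 copies, 1 on each strand. The printed elements lay between 212 and 26 bases before the start. The ERSE-II match of Dnajb11, which is not printed, lay 7 to 17 bases after the start. A match is a stretch of letters, and whether a factor bound there was not measured. The 3′ end CCACG alone was in 25 of the 30 members (83.3%), against 35.5% of all genes, and CCAAT alone in 23 (76.7%), against 41.1%; both are contained in the full element. The unfolded protein response element TGACGTGG was in Txndc5 and Ube2j1 (6.67%), against 0.714% of all genes. The 6 members not matched in the promoter table were Hyou1, Manf, Atf6, Derl1, Erlec1 and Sec61a1.

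The first comparison asks whether fever-range temperature during activation changes these genes. It gave small differences in both directions. No member of 35 was called between 39 °C and 37 °C, where called means an adjusted p under 0.05 in edgeR's quasi-likelihood test with Benjamini-Hochberg adjustment over all genes tested; 0.758% of all genes were called. At an unadjusted p under 0.05 there were 3 members, Hsp90b1, Canx and Syvn1, all lower at 39 °C, against 7.96% of all genes, and DESeq2 called 0 members and 1.07% of all genes. The log2 fold changes ran from -0.22 for Hsp90b1 to 0.19 for Sdf2l1, with a median of 0.048 against 0.0041 over all genes. Their 95% intervals lay wholly inside a log2 change of 0.5 either way for 34 members, and Sdf2l1, the exception, reached 0.58. The 3 libraries at 39 °C lay all above those at 37 °C for 7 members and all below for 5, where 20.9% of all genes had libraries that did not overlap (10.7% above and 10.3% below).

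The 2 members furthest below their 37 °C level at 39 °C, Hsp90b1 and Canx, both encode chaperones. Hsp90b1 stood at 203, 205 and 213 CPM at 39 °C, 234, 239 and 249 CPM at 37 °C and 127, 138 and 131 CPM in naive cells. Hsp90b1 encodes GRP94, the ER's Hsp90, needed for integrins and Toll-like receptors. The 39 °C libraries were all below the 37 °C ones and all above the naive ones, with a log2 fold change of -0.22 ± 0.063 (SE, edgeR adjusted p = 0.240) between the temperatures. Canx stood at 343, 335 and 339.9 CPM at 39 °C, 385, 390.3 and 390.0 CPM at 37 °C and 188, 165 and 161 CPM in naive cells. Canx encodes calnexin, the membrane-bound lectin chaperone. Its libraries also fell into 3 separate ranges, with a log2 fold change of -0.19 ± 0.070 (SE, edgeR adjusted p = 0.444) between 39 °C and 37 °C. Both genes were called lower at 39 °C when naive replicate 1 was left out, and when the 6 activated libraries were fitted alone, with log2 fold changes of -0.22 for Hsp90b1 and -0.19 for Canx under both settings. The adjusted p values there lay between 0.023 and 0.040 for Hsp90b1 and between 0.029 and 0.045 for Canx. Fitted alone, the 6 libraries gave 401 called genes in all, against 101 in the fit of all 9. Without naive replicate 1 the total was 291. Syvn1 encodes the ubiquitin ligase HRD1. It stood at 115, 112 and 114 CPM at 39 °C, 137, 128 and 117 CPM at 37 °C and 77.8, 78.2 and 84.7 CPM in naive cells, with a log2 fold change of -0.16 ± 0.071 (SE, edgeR adjusted p = 0.596) between the temperatures.

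**Figure D1:**
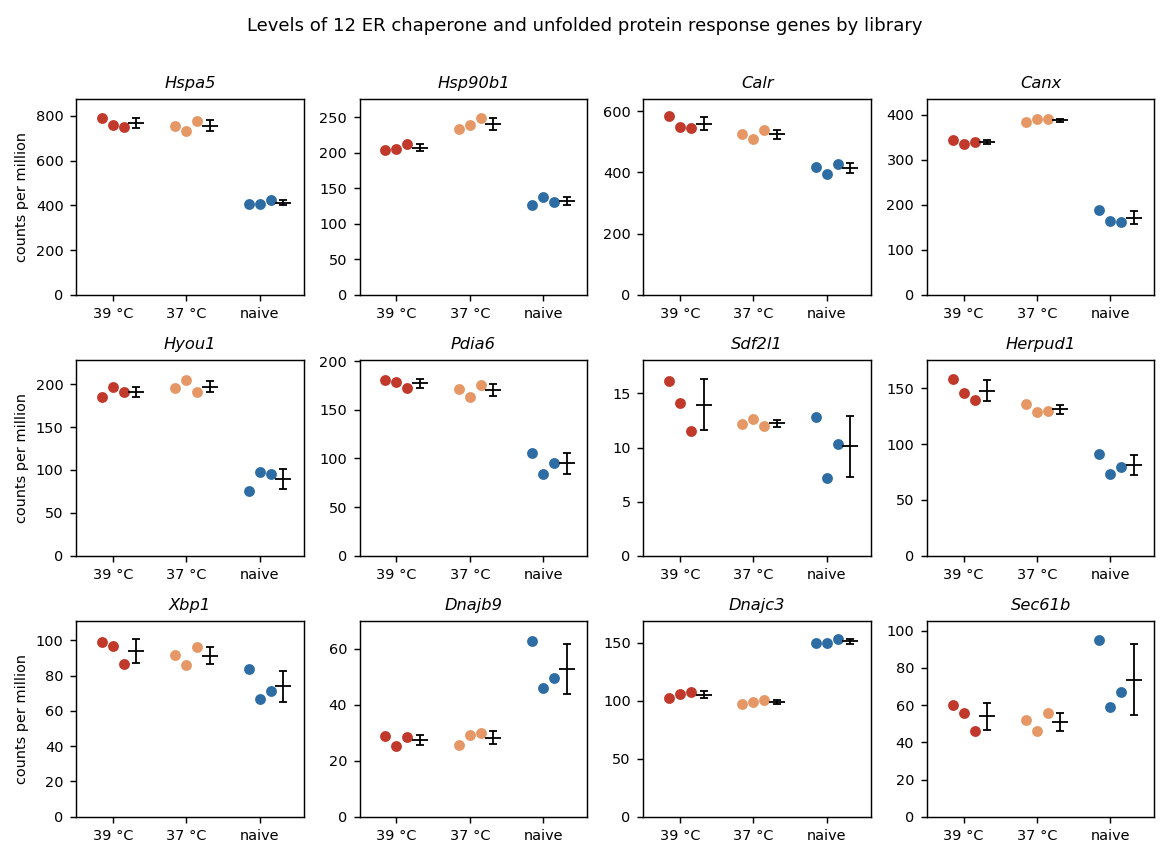
CPM (linear axes from 0) of 12 members in each of the 9 libraries, at 39 °C, 37 °C and in naive cells; points are libraries, and the black bar beside them is the mean with its SD (n = 3). Hsp90b1 and Canx lie lower at 39 °C than at 37 °C, while Hspa5, Hyou1 and Pdia6 overlap between the temperatures and stand well above naive cells; Dnajb9 and Dnajc3 lie below naive cells at both.

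The second pair of comparisons sets cells activated for 3 h against naive cells, where activation and time in culture cannot be told apart. These comparisons share libraries with each other and with the first comparison, so their values stand side by side. At 39 °C against naive cells 19 members rose and 7 fell (58.9% of all genes called, 29.2% higher and 29.8% lower), with a median log2 fold change of 0.28 against -0.0027 over all genes. At 37 °C against naive cells 19 rose and 11 fell (62.7% of all genes called, 30.9% higher and 31.8% lower), with a median of 0.27 against -0.0025. The changes thus went both ways. Upper-quartile scaling moved the median of all genes to -0.13 at 39 °C and -0.14 at 37 °C against naive cells. Under it 15 members rose and 10 fell at 39 °C, and 15 rose and 12 fell at 37 °C. Over all genes, that scaling called 3092 higher and 4914 lower at 39 °C, and 3340 and 5139 at 37 °C. Summed over the 36 genes, members took 0.489 ± 0.0064% of all counts at 39 °C, 0.485 ± 0.0037% at 37 °C and 0.385 ± 0.0024% in naive cells (SD, n = 3 each).

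**Figure D2:**
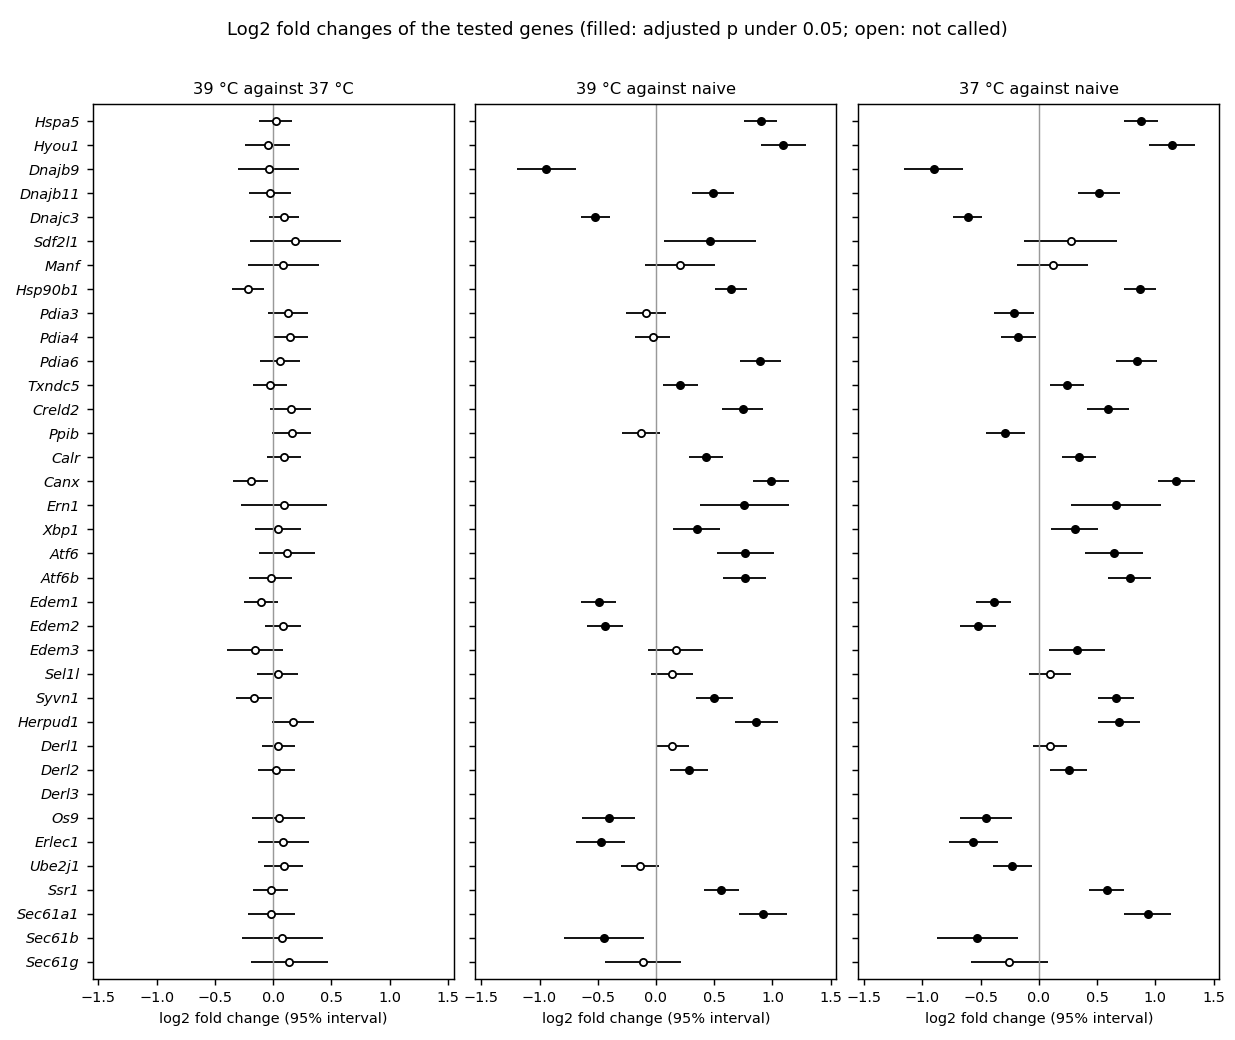
Log2 fold changes with 95% intervals for the tested members, in order of role, for 39 °C against 37 °C, 39 °C against naive and 37 °C against naive; filled points passed an adjusted p under 0.05 in edgeR's quasi-likelihood test and open points did not. All points of the first panel are open and lie near 0, while the other panels hold 19 filled points to the right and 7 (39 °C) or 11 (37 °C) to the left; Derl3 was not tested.

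The Hsp70 system of the lumen, 7 genes, moved both ways, with 4 higher and 2 lower than in naive cells at 39 °C, and 3 higher and 2 lower at 37 °C. Over all genes tested, 29.2% were called higher and 29.8% lower at 39 °C, and 30.9% and 31.8% at 37 °C. Hspa5 stood at 791, 759 and 752 CPM at 39 °C, 756, 732 and 779 CPM at 37 °C and 407, 405 and 423 CPM in naive cells. Hspa5 encodes BiP, the central chaperone of the lumen and the protein that holds the stress sensors inactive. All 6 activated libraries lay far above the naive ones, with a log2 fold change of 0.90 ± 0.066 (SE, edgeR adjusted p = 2.70e-07) at 39 °C, and a log2 fold change of 0.88 ± 0.066 (SE, edgeR adjusted p = 3.04e-07) at 37 °C. Hyou1 stood at 185, 197 and 191 CPM at 39 °C, 196, 205 and 191 CPM at 37 °C and 75.8, 97.2 and 95.2 CPM in naive cells. Hyou1 encodes GRP170, which exchanges nucleotide on BiP. It rose at both temperatures, with a log2 fold change of 1.09 ± 0.090 (SE, edgeR adjusted p = 6.77e-07) at 39 °C, and a log2 fold change of 1.14 ± 0.090 (SE, edgeR adjusted p = 4.32e-07) at 37 °C. Dnajb11 (ERdj3), the J-domain protein that brings BiP to new chains, also rose, with log2 fold changes of 0.49 at 39 °C and 0.52 at 37 °C.

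The remaining J-domain proteins fell. Dnajb9 stood at 28.7, 25.2 and 28.4 CPM at 39 °C, 25.6, 29.2 and 29.9 CPM at 37 °C and 62.9, 45.9 and 49.7 CPM in naive cells. Dnajb9 encodes ERdj4, which directs BiP to IRE1 and to substrates of degradation, and is a well-known XBP1 target. Each activated library lay below each naive one, with a log2 fold change of -0.94 ± 0.12 (SE, edgeR adjusted p = 2.29e-05) at 39 °C, and a log2 fold change of -0.90 ± 0.12 (SE, edgeR adjusted p = 2.95e-05) at 37 °C. Dnajc3 stood at 102, 106 and 108 CPM at 39 °C, 97.2, 98.6 and 101 CPM at 37 °C and 150.2, 149.7 and 154 CPM in naive cells. Dnajc3 encodes p58IPK, a lumenal co-chaperone of BiP. Its libraries at 39 °C lay above those at 37 °C and below the naive ones, with a log2 fold change of -0.52 ± 0.058 (SE, edgeR adjusted p = 9.29e-06) at 39 °C, and a log2 fold change of -0.61 ± 0.058 (SE, edgeR adjusted p = 2.19e-06) at 37 °C. Dnajc3 was the only tested member that had a full element in its promoter window and fell.

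Sdf2l1 and Manf, small stress-inducible lumenal proteins, were the least certain of the group. Sdf2l1 stood at 16.2, 14.2 and 11.5 CPM at 39 °C, 12.2, 12.6 and 11.96 CPM at 37 °C and 12.8, 7.22 and 10.3 CPM in naive cells. The activated and naive ranges overlapped. Sdf2l1, a partner of ERdj3, was called higher at 39 °C, with a log2 fold change of 0.46 ± 0.18 (SE, edgeR adjusted p = 0.0431), but the call was lost under 11 alternatives. Among these were the fits without 39 °C replicate 1 or 2, any replicate at 37 °C, or naive replicate 2 or 3, with log2 fold changes between 0.28 and 0.48 and adjusted p up to 0.189. At 37 °C it had a log2 fold change of 0.27 ± 0.18 (SE, edgeR adjusted p = 0.211). Manf stood at 54.2, 47.9 and 46.7 CPM at 39 °C, 47.2, 44.0 and 48.9 CPM at 37 °C and 54.9, 34.5 and 39.7 CPM in naive cells. Manf, a BiP-binding protein that cells can also secrete, was called against naive cells at neither temperature, with log2 fold changes of 0.21 at 39 °C and 0.12 at 37 °C. Naive replicate 1 was the highest of the naive libraries for both genes. Without it Manf was called higher at 39 °C (0.42) and at 37 °C (0.33), and Sdf2l1 at 37 °C (0.47).

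Of the Hsp90 and lectin chaperones, all 3 rose, where 29.2% of all genes were called higher at 39 °C and 30.9% at 37 °C. Hsp90b1, whose libraries are given above, had a log2 fold change of 0.65 ± 0.063 (SE, edgeR adjusted p = 3.10e-06) at 39 °C, and a log2 fold change of 0.86 ± 0.063 (SE, edgeR adjusted p = 2.26e-07) at 37 °C. Canx had a log2 fold change of 0.99 ± 0.071 (SE, edgeR adjusted p = 2.16e-07) at 39 °C, and the largest rise of any member at 37 °C, with a log2 fold change of 1.18 ± 0.071 (SE, edgeR adjusted p = 4.07e-08). Calr stood at 583, 547 and 546 CPM at 39 °C, 526, 509 and 538 CPM at 37 °C and 419, 396 and 427 CPM in naive cells. Calr encodes calreticulin, the soluble counterpart of calnexin. Its 39 °C libraries lay above the 37 °C ones and both above naive, with a log2 fold change of 0.43 ± 0.067 (SE, edgeR adjusted p = 1.46e-04) at 39 °C, and a log2 fold change of 0.34 ± 0.067 (SE, edgeR adjusted p = 8.00e-04) at 37 °C. At 39 °C against 37 °C the soluble lectin chaperone therefore had a log2 fold change of 0.091 and the membrane-bound one of -0.19, neither of them called.

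The disulfide and prolyl isomerases moved apart as well, with 3 higher and 0 lower at 39 °C (edgeR; also 3 and 0 at an unadjusted p under 0.05, and 3 called by DESeq2), and 3 higher and 3 lower at 37 °C. Among all genes tested, 29.2% were called higher and 29.8% lower at 39 °C by edgeR, and 30.9% and 31.8% at 37 °C. Pdia6 stood at 181, 178 and 172 CPM at 39 °C, 171, 163 and 176 CPM at 37 °C and 106, 84.4 and 95.1 CPM in naive cells. Pdia6 encodes the isomerase P5, which also acts on the IRE1 sensor. It was higher in every activated library than in any naive one, with a log2 fold change of 0.90 ± 0.081 (SE, edgeR adjusted p = 1.53e-06) at 39 °C, and a log2 fold change of 0.84 ± 0.081 (SE, edgeR adjusted p = 2.50e-06) at 37 °C. Creld2 stood at 43.3, 40.1 and 38.9 CPM at 39 °C, 38.3, 34.3 and 37.6 CPM at 37 °C and 23.9, 23.0 and 26.2 CPM in naive cells. Creld2, a stress-inducible protein with isomerase activity, rose too, with a log2 fold change of 0.74 ± 0.082 (SE, edgeR adjusted p = 9.28e-06) at 39 °C, and a log2 fold change of 0.59 ± 0.083 (SE, edgeR adjusted p = 6.06e-05) at 37 °C; its ranges at 39 °C and 37 °C did not overlap. Txndc5 stood at 70.0, 71.1 and 64.7 CPM at 39 °C, 70.2, 69.5 and 70.1 CPM at 37 °C and 63.0, 57.4 and 57.5 CPM in naive cells. The rise of Txndc5, a thioredoxin-domain isomerase, was small, with a log2 fold change of 0.21 ± 0.067 (SE, edgeR adjusted p = 0.0178) at 39 °C, and a log2 fold change of 0.24 ± 0.067 (SE, edgeR adjusted p = 0.00837) at 37 °C. The 39 °C call was lost without 39 °C replicate 1, 39 °C replicate 2 or naive replicate 3, with every gene with any count in the fit, at an adjusted p under 0.01 and with upper-quartile scaling, where the log2 fold change was as low as 0.083; that scaling also ended the 37 °C call, at 0.10.

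Pdia3, Pdia4 and Ppib were lower than in naive cells at 37 °C only by small amounts. Pdia3 encodes ERp57, the partner of calnexin and calreticulin in glycoprotein folding and in loading of MHC class I. It stood at 316, 301 and 305 CPM at 39 °C, 279.7, 270.1 and 292 CPM at 37 °C and 363, 299 and 316 CPM in naive cells. Its 37 °C libraries were below both other groups, with a log2 fold change of -0.22 ± 0.079 (SE, edgeR adjusted p = 0.0313) against naive cells. Pdia4 (ERp72) had a log2 fold change of -0.18 ± 0.069 (SE, edgeR adjusted p = 0.0431) at 37 °C, and Ppib, the prolyl isomerase cyclophilin B, had a log2 fold change of -0.29 ± 0.076 (SE, edgeR adjusted p = 0.00563). At 39 °C the log2 fold changes against naive cells were -0.084 for Pdia3, -0.027 for Pdia4 and -0.13 for Ppib, none of them called. The Pdia4 call at 37 °C was lost under 13 alternatives, among them the fit without any 1 library other than 39 °C replicate 1, with log2 fold changes between -0.20 and -0.16 and adjusted p up to 0.141. The Pdia3 call was lost without 39 °C replicate 2, 37 °C replicate 1, 37 °C replicate 2 or naive replicate 1, with the 6 libraries of the comparison alone and at an adjusted p under 0.01, with log2 fold changes between -0.22 and -0.13 and adjusted p up to 0.124. With upper-quartile scaling Pdia3 and Ppib were also called lower at 39 °C, at -0.21 and -0.26.

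All 4 genes of the stress sensors and their factors rose at both temperatures, where 29.2% of all genes were called higher at 39 °C and 30.9% at 37 °C. Ern1 stood at 17.2, 20.6 and 21.1 CPM at 39 °C, 19.0, 19.5 and 16.5 CPM at 37 °C and 8.39, 15.2 and 11.2 CPM in naive cells. Ern1 encodes IRE1, the kinase and RNase that splices Xbp1 mRNA. All activated libraries were above the highest naive one, with a log2 fold change of 0.76 ± 0.17 (SE, edgeR adjusted p = 0.00262) at 39 °C, and a log2 fold change of 0.66 ± 0.18 (SE, edgeR adjusted p = 0.00586) at 37 °C. Xbp1 stood at 99.2, 96.9 and 86.4 CPM at 39 °C, 91.9, 86.2 and 96.0 CPM at 37 °C and 83.9, 66.8 and 71.0 CPM in naive cells. Xbp1 encodes the transcription factor made from that spliced mRNA; gene counts do not separate the spliced from the unspliced form. Its rise was the smallest of the group, with a log2 fold change of 0.35 ± 0.092 (SE, edgeR adjusted p = 0.00588) at 39 °C, and a log2 fold change of 0.31 ± 0.092 (SE, edgeR adjusted p = 0.0118) at 37 °C. Upper-quartile scaling ended both calls, at 0.22 and 0.17. Atf6 stood at 15.5, 16.8 and 16.9 CPM at 39 °C, 16.0, 15.8 and 13.4 CPM at 37 °C and 9.01, 10.9 and 9.08 CPM in naive cells. Atf6, which encodes the sensor that is cut in the Golgi to release a transcription factor, had a log2 fold change of 0.77 ± 0.11 (SE, edgeR adjusted p = 9.75e-05) at 39 °C, and a log2 fold change of 0.64 ± 0.11 (SE, edgeR adjusted p = 3.71e-04) at 37 °C. Its relative Atf6b had log2 fold changes of 0.76 at 39 °C and 0.78 at 37 °C, both called. Ern1 and Atf6 were the lowest tested members per length, as given below.

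The genes of ER-associated degradation moved both ways. Against naive cells 3 of its 11 tested genes rose and 4 fell at 39 °C, and 4 rose and 5 fell at 37 °C. The shares over all genes tested were 29.2% higher and 29.8% lower at 39 °C, and 30.9% and 31.8% at 37 °C. The 3 that rose at both temperatures were Herpud1, Syvn1 and Derl2. Herpud1 stood at 158, 146 and 139 CPM at 39 °C, 136, 128 and 129 CPM at 37 °C and 91.3, 73.4 and 79.5 CPM in naive cells. Herpud1, a membrane protein that organizes the HRD1 complex and a classical stress target, had a log2 fold change of 0.86 ± 0.084 (SE, edgeR adjusted p = 3.23e-06) at 39 °C, and a log2 fold change of 0.69 ± 0.084 (SE, edgeR adjusted p = 1.99e-05) at 37 °C. Its 39 °C libraries were all above the 37 °C ones, with a log2 fold change of 0.17 ± 0.083 (SE, edgeR adjusted p = 0.666). Syvn1 had log2 fold changes of 0.50 at 39 °C and 0.66 at 37 °C, and Derl2, a derlin of the channel, had 0.28 and 0.25 in the same order, all called. Upper-quartile scaling ended the Derl2 calls, at 0.16 for 39 °C and 0.12 for 37 °C. Sel1l, the adaptor of HRD1, was called at neither temperature, with log2 fold changes of 0.14 at 39 °C and 0.098 at 37 °C.

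The 4 that fell at both temperatures were Edem1, Edem2, Os9 and Erlec1. Erlec1 stood at 23.7, 23.4 and 22.9 CPM at 39 °C, 20.9, 24.1 and 20.8 CPM at 37 °C and 36.8, 30.2 and 30.4 CPM in naive cells. Erlec1, a lectin that brings trimmed glycoproteins to HRD1, had a log2 fold change of -0.48 ± 0.097 (SE, edgeR adjusted p = 0.00117) at 39 °C, and a log2 fold change of -0.56 ± 0.098 (SE, edgeR adjusted p = 3.38e-04) at 37 °C. Os9 stood at 137, 132 and 132 CPM at 39 °C, 132, 127 and 129 CPM at 37 °C and 144, 184 and 204 CPM in naive cells. Os9, the other such lectin, spread most in naive cells, where replicate 1 was nearest to the activated libraries, yet the ranges did not overlap. It had a log2 fold change of -0.41 ± 0.10 (SE, edgeR adjusted p = 0.00475) at 39 °C, and a log2 fold change of -0.46 ± 0.10 (SE, edgeR adjusted p = 0.00218) at 37 °C. Edem2 stood at 44.4, 40.0 and 40.3 CPM at 39 °C, 38.8, 39.1 and 39.8 CPM at 37 °C and 58.4, 53.1 and 57.1 CPM in naive cells. Edem2, which starts mannose trimming of such glycoproteins, had a log2 fold change of -0.43 ± 0.071 (SE, edgeR adjusted p = 2.13e-04) at 39 °C, and a log2 fold change of -0.52 ± 0.071 (SE, edgeR adjusted p = 4.85e-05) at 37 °C. Edem1, a related mannosidase-like protein, had log2 fold changes of -0.49 at 39 °C and -0.39 at 37 °C, both called.

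The third of that family, Edem3, was not called at 39 °C, at a log2 fold change of 0.17, and was called higher at 37 °C, with a log2 fold change of 0.32 ± 0.11 (SE, edgeR adjusted p = 0.0216). Its difference between 39 °C and 37 °C was itself not called, at -0.16. The 37 °C call was lost without 37 °C replicate 2 or naive replicate 3, with upper-quartile or library-size scaling and at an adjusted p under 0.01, with log2 fold changes between 0.19 and 0.32; without naive replicate 2 Edem3 was also called at 39 °C, at 0.28. Ube2j1, the ubiquitin-conjugating enzyme of the ER membrane, had a log2 fold change of -0.14 at 39 °C, which was not called, and was called lower at 37 °C, with a log2 fold change of -0.23 ± 0.075 (SE, edgeR adjusted p = 0.0198). That 37 °C call was lost without 37 °C replicate 1 or 3 and at an adjusted p under 0.01, with log2 fold changes between -0.23 and -0.20; upper-quartile scaling gave a call at 39 °C, at -0.26. Derl1 was not called, at 0.14 at 39 °C and 0.095 at 37 °C, but without naive replicate 1 it was called higher at both, at 0.20 and 0.15. Derl3, the derlin known from secretory cells, had 8, 4 and 9 counts at 39 °C, 9, 5 and 7 counts at 37 °C and 8, 8 and 12 counts in naive cells. Its level was 0.498, 0.318 and 0.627 CPM at 39 °C, 0.643, 0.345 and 0.543 CPM at 37 °C and 0.550, 0.561 and 0.677 CPM in naive cells, and a difference was not detectable at this depth, although its promoter window holds a full element.

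Among the 4 translocon genes, Sec61a1 and Ssr1 rose and the small subunits of the pore did not. The shares of all genes called higher were 29.2% at 39 °C and 30.9% at 37 °C. Sec61a1 stood at 208, 209 and 207 CPM at 39 °C, 209.7, 211 and 209.8 CPM at 37 °C and 91.2, 119 and 120.3 CPM in naive cells. Sec61a1 encodes the pore-forming subunit. The activated libraries lay within a narrow range far above naive cells, with a log2 fold change of 0.92 ± 0.094 (SE, edgeR adjusted p = 4.46e-06) at 39 °C, and a log2 fold change of 0.93 ± 0.094 (SE, edgeR adjusted p = 3.61e-06) at 37 °C. Ssr1, a subunit of the translocon-associated protein complex, had log2 fold changes of 0.56 at 39 °C and 0.58 at 37 °C, both called. Sec61b stood at 59.9, 55.8 and 46.0 CPM at 39 °C, 51.7, 45.8 and 55.6 CPM at 37 °C and 94.9, 58.7 and 67.2 CPM in naive cells. Sec61b encodes the small beta subunit, and its highest value was in naive replicate 1. It had a log2 fold change of -0.45 ± 0.16 (SE, edgeR adjusted p = 0.0280) at 39 °C, where the ranges overlapped, and a log2 fold change of -0.53 ± 0.16 (SE, edgeR adjusted p = 0.0119) at 37 °C. The 39 °C call was lost without naive replicate 1, 39 °C replicate 2 or 39 °C replicate 3, with the 6 libraries of the comparison alone and at an adjusted p under 0.01, with log2 fold changes between -0.47 and -0.22; the 37 °C call was lost without 37 °C replicate 2 (adjusted p = 0.0535) and at an adjusted p under 0.01. Sec61g, the gamma subunit, was not called, at -0.11 at 39 °C and -0.25 at 37 °C; at 37 °C it was called lower without naive replicate 2, with upper-quartile scaling and with every gene with any count in the fit, at values between -0.39 and -0.26.

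**Figure D3:**
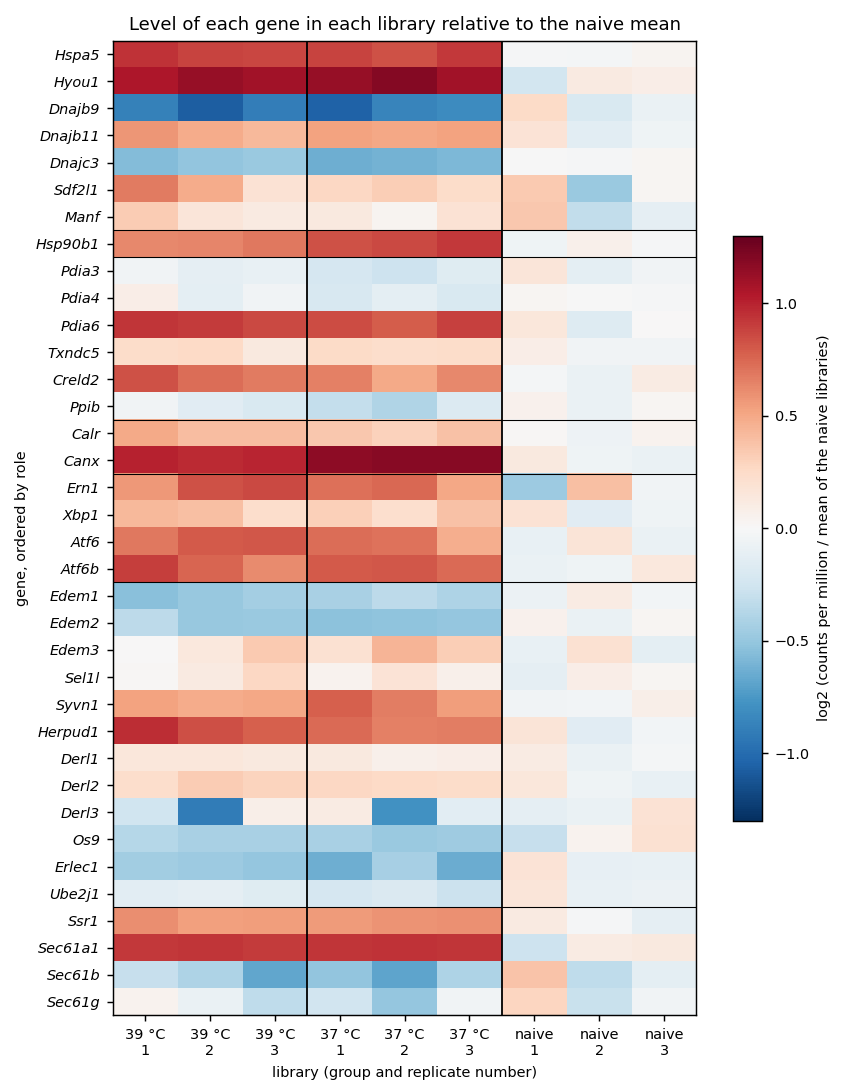
Level of each of the 36 members (rows, ordered by role, thin lines between roles) in each of the 9 libraries (columns), as log2 of CPM over the mean of the naive libraries; red is higher and blue lower. The 6 activated columns resemble each other gene by gene, the naive columns differ more among themselves, and the Derl3 row rests on 4 to 12 counts a library.

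The spread among replicates was larger in naive cells. The median coefficient of variation over the tested members, which leaves out Derl3, was 4.75% at 39 °C, 3.34% at 37 °C and 10.1% in naive libraries. Naive replicate 1 was the highest naive library for 20 of the 36 members, against 44.0% of all genes tested, and naive replicate 2 the lowest for 20, against 40.7%. Replicate 1 was instead the lowest naive library for 11 members, against 38.3% of all genes, among them Hsp90b1, Hyou1, Ern1, Os9 and Sec61a1. Its part in the values of single members is given above where it changed a call.

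Per length, the order of the genes was led by the same few chaperones. At 39 °C Calr averaged 194 ± 7.24 CPM per kb of exon and Hspa5 182 ± 4.93 (SD, n = 3 each), and their libraries did not overlap. At 37 °C Calr averaged 182 ± 5.03 and Hspa5 179 ± 5.56 CPM per kb, and their libraries overlapped. In naive cells Calr averaged 144 ± 5.60, Pdia3 104 ± 10.5 and Hspa5 97.4 ± 2.37 CPM per kb, where Pdia3 and Hspa5 overlapped. Pdia3 followed at 39 °C with 98.0 ± 2.35, then Canx with 72.3 ± 0.872 and Herpud1 with 63.3 ± 4.05 CPM per kb. At the low end at 39 °C were Ern1 with 2.40 ± 0.26, Atf6 with 1.78 ± 0.0843 and Derl3 with 0.241 ± 0.078 CPM per kb. Parts of some members' exons are shared with another annotated gene, 24.96% for Ppib (with Snx22), 10.3% for Hsp90b1 (with 1810014B01Rik) and 8.16% for Sec61a1 (with Gm44170), and how the counting treated strand there is not given in the sources used here. Calr has an annotated pseudogene, Calr-ps, and how reads that fit both were counted is not given either.

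Set against the promoter windows above, the tested members were counted by whether they held a full ERSE or ERSE-II element. Only exact spellings inside the window counted. Members scored as holding none may therefore have a variant spelling or an element further from the start. Of 10 tested members with an element, 9 rose and Dnajc3 fell at each temperature against naive cells, with a median log2 fold change of 0.70 at 39 °C and 0.68 at 37 °C. Of 19 members whose window held none, 7 rose and 5 fell at 39 °C, with a median of -0.027, and 7 rose and 9 fell at 37 °C, with a median of -0.18. Among the 6 members without a promoter entry, 3 rose and 1 fell at each temperature. Of all genes, 29.2% were called higher and 29.8% lower at 39 °C, and 30.9% higher and 31.8% lower at 37 °C. Outside the members, 38 genes had a full element in a window. Of these, 17 were tested, and 3 rose and 8 fell at 37 °C, with a median of -0.18. No difference between these groups was tested.

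**Figure D4:**
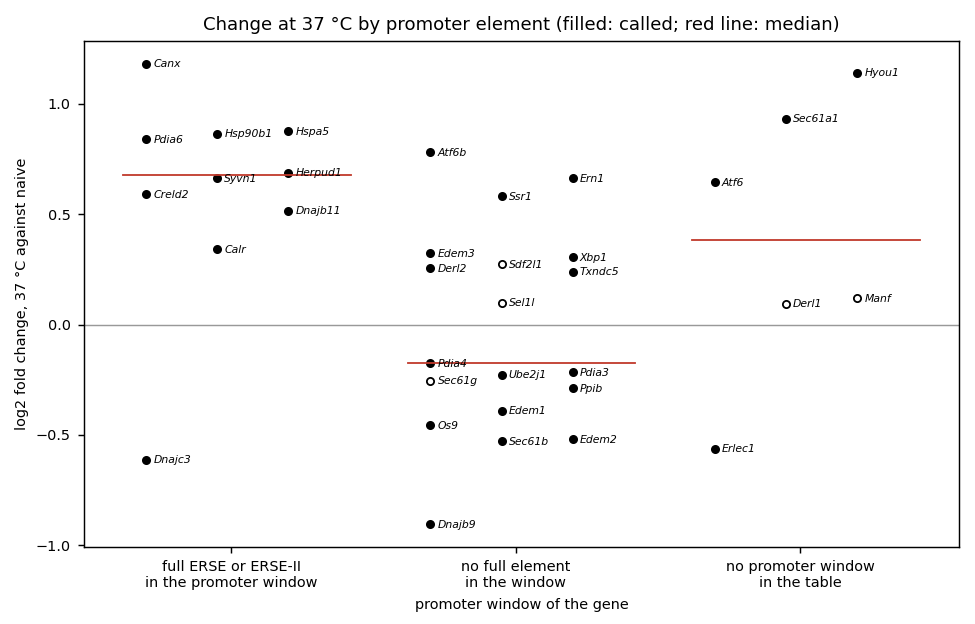
Log2 fold change at 37 °C against naive cells for the 35 tested members, placed by whether the promoter window holds a full ERSE or ERSE-II element, holds none, or is not in the table; filled points were called, open points were not, and the red line is the median. The left group holds 9 members above 0 and Dnajc3 below it, while the middle group is spread on both sides of 0.

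The other genes of the pathway, 92 genes of which 88 were tested, gave the members a wider setting. Between 39 °C and 37 °C 3 of them were called (edgeR; 0.758% of all genes), and none encodes an ER chaperone. Ddit3 stood at 59.9, 56.9 and 54.5 CPM at 39 °C, 38.8, 37.7 and 37.1 CPM at 37 °C and 25.4, 20.3 and 23.4 CPM in naive cells. Ddit3 encodes CHOP, a transcription factor downstream of PERK and ATF4, and its 3 ranges did not overlap, with a log2 fold change of 0.59 ± 0.084 (SE, edgeR adjusted p = 0.00558) between 39 °C and 37 °C. Trib3 stood at 79.1, 70.3 and 68.6 CPM at 39 °C, 49.1, 53.5 and 53.4 CPM at 37 °C and 13.3, 11.99 and 14.3 CPM in naive cells. Trib3, a pseudokinase that CHOP and ATF4 induce, was higher at 39 °C, with a log2 fold change of 0.48 ± 0.082 (SE, edgeR adjusted p = 0.0157). Ubxn4 stood at 157, 157 and 151 CPM at 39 °C, 197, 195 and 197 CPM at 37 °C and 104, 105 and 103 CPM in naive cells. Ubxn4, a membrane adaptor of the degradation ATPase p97, was lower at 39 °C than at 37 °C and above naive cells, with a log2 fold change of -0.34 ± 0.056 (SE, edgeR adjusted p = 0.0143) between the temperatures. The Trib3 call was lost without 39 °C replicate 1 or 2 or any 1 replicate at 37 °C, and the Ubxn4 call without any 1 activated replicate, with log2 fold changes between 0.42 and 0.51 for Trib3 and between -0.35 and -0.32 for Ubxn4. Both were also lost at an adjusted p under 0.01.

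Against naive cells 39 of the 88 rose and 20 fell at 39 °C, and 37 rose and 22 fell at 37 °C, where 58.9% and 62.7% of all genes were called in the same order. The medians were 0.17 at 39 °C and 0.12 at 37 °C. Upper-quartile scaling gave 34 rises and 25 falls at 39 °C, and 30 and 29 at 37 °C. Over all genes it gave 3092 and 4914 at 39 °C, and 3340 and 5139 at 37 °C. All 9 tested genes listed under the PERK arm were called, 7 higher and 2 lower at each temperature. The name is that of the list, and the activity of PERK was not measured. Eif2ak3, which encodes PERK itself, fell, with a log2 fold change of -0.99 ± 0.073 (SE, edgeR adjusted p = 2.49e-07) at 39 °C, and a log2 fold change of -0.83 ± 0.072 (SE, edgeR adjusted p = 1.09e-06) at 37 °C, in contrast with the other sensor genes Ern1 and Atf6 above. Ppp1r15a, which encodes GADD34, the phosphatase subunit that reverses PERK's signal, had the second largest fall of the called pathway genes at 37 °C. It stood at 124, 119 and 119.5 CPM at 39 °C, 141, 136 and 139 CPM at 37 °C and 387, 407 and 434 CPM in naive cells. Atf4, the translationally controlled factor below PERK, had log2 fold changes of 0.61 at 39 °C and 0.59 at 37 °C, both called.

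The ATF4 targets Chac1 and Asns rose most among called pathway genes at 37 °C. Chac1, a glutathione-degrading enzyme, had 15.8, 15.7 and 15.9 CPM at 39 °C, 12.2, 12.5 and 12.8 CPM at 37 °C and no counts in naive libraries. With the naive libraries together set to 3 counts, it was at least 245-fold higher at 39 °C and at least 194-fold higher at 37 °C, bounds that cover counting error only. Asns, asparagine synthetase, had 7.60, 7.47 and 6.41 CPM at 39 °C, 8.002, 8.62 and 8.85 CPM at 37 °C and 0.138, 0.421 and 0 CPM in naive cells. Trib3, with the third largest rise, had a log2 fold change of 1.97 at 37 °C. The largest falls were those of Creb3l1, an ER-bound transcription factor that was barely detected (0.125, 0.159 and 0.209 CPM at 39 °C, 0.286, 0.207 and 0.0776 CPM at 37 °C and 1.17, 0.911 and 1.07 CPM in naive cells), then Ppp1r15a and Ngly1, the cytosolic enzyme that strips glycans from retrotranslocated proteins. Ngly1 stood at 29.0, 28.0 and 27.1 CPM at 39 °C, 22.9, 24.4 and 25.5 CPM at 37 °C and 67.0, 59.0 and 55.9 CPM in naive cells. It had a log2 fold change of -1.11 ± 0.084 (SE, edgeR adjusted p = 3.36e-07) at 39 °C, and a log2 fold change of -1.32 ± 0.085 (SE, edgeR adjusted p = 7.38e-08) at 37 °C.

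Of the 20 tested folding enzymes outside the members 3 rose and 6 fell at 39 °C, and 3 rose and 7 fell at 37 °C. For all genes tested the shares were 29.2% higher and 29.8% lower at 39 °C, and 30.9% and 31.8% at 37 °C. P4hb and Ero1l were among the rises. P4hb, the founding protein disulfide isomerase, had log2 fold changes of 0.68 at 39 °C and 0.73 at 37 °C. Ero1l, the oxidase that recharges it, had 0.82 and 0.92 in the same order, and all 4 values were called. The related oxidase gene Ero1lb fell, with -0.51 at 39 °C and -0.50 at 37 °C. Mbtps1, the Golgi protease that cuts ATF6, fell, with a log2 fold change of -0.29 ± 0.087 (SE, edgeR adjusted p = 0.0134) at 39 °C, and a log2 fold change of -0.27 ± 0.087 (SE, edgeR adjusted p = 0.0156) at 37 °C. The 37 °C call was lost without 37 °C replicate 3 or naive replicate 3 (adjusted p up to 0.0696). Of the 16 other degradation genes 7 rose and 4 fell at 39 °C, and 6 rose and 5 fell at 37 °C.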

How the data were processed

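RNA from 9 libraries (3 per group) was prepared with the TruSeq RNA kit, per the labels' protocols. The authors deposited 1 table of raw read counts per gene for each library. Build GRCm38 and the tools FastQC, HISAT2, HTSeq and DESeq2 are listed, without versions or order, in the submitters' processing notes; the annotation release and strand setting are not given in the sources used here. Ensembl IDs were matched to symbols with GENCODE M21 (55480 of 55573 rows), and 0 rows named no gene. Counts were filtered with filterByExpr (minimum count 10, minimum total count 15), scaled by TMM and tested with edgeR 4.0.16 (quasi-likelihood, all 9 libraries in 1 fit, group the only term, 2-sided, Benjamini-Hochberg over 13328 genes, threshold 0.05). The script was tested on simulated data. CPM uses the TMM factors, and CPM per kb the summed exon length. Alternatives were other scalings and filters, DESeq2 1.42.0, a replicate block, the 6 libraries of a comparison alone, each library left out, and an adjusted p under 0.01. Members and gene lists were chosen with earlier results of these data known. Values in every library were given for 16 fixed members and for the 6 largest rises and 6 largest falls among those called at 37 °C against naive cells; outside the members, 7 fixed genes, those called between the temperatures, and the 3 largest rises and falls at 37 °C were named, some by fold change only, and Ero1lb was added after its values were seen. Values in every library for Pdia3 and Syvn1 were added after they were seen. A check of C-terminal residues of the proteins was not run here. The value of 1 marker gene by name is not reported here.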

Additional observations from a re-analysis of the deposited data

How the results depend on the processing

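The counts of called members and of called pathway genes outside the members stayed within 1.5 times their main value for most alternatives. Between 39 °C and 37 °C, fitting the 6 activated libraries alone gave 2 called members (Hsp90b1 and Canx, both lower) instead of 0. It gave 6 called pathway genes instead of 3, and 401 called genes in all instead of 101. An adjusted p under 0.01 left 1 pathway gene, Ddit3. The cause was not tested. Leaving out 1 library at a time gave 0 to 2 called members between 39 °C and 37 °C. Against naive cells it gave 23 to 27 at 39 °C and 26 to 31 at 37 °C. For pathway genes the ranges were 1 to 4, 53 to 65 and 53 to 64 in the same order. Over all genes they were 37 to 291, 6953 to 8277 and 7419 to 8632. With the replicate number as a block, 0 members were called between 39 °C and 37 °C. Against naive cells that fit called 26 members at 39 °C and 29 at 37 °C. It called 3, 62 and 61 pathway genes in the same order, and 97, 8065 and 8519 genes in all. Libraries with the same number correlated in their deviations from the group means between -0.17 and 0.33, so the numbers were not taken to pair them. Of members called against naive cells, 15 of the 19 rises at each temperature were called under every alternative, as were 6 of 7 falls at 39 °C and 7 of 11 at 37 °C. No called member changed direction under any alternative run. Depth limits Derl3.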

Other observations

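The other translocon, signal peptidase and oligosaccharyltransferase genes, which insert proteins into the ER and attach their glycans, gave 24 tested genes. Against naive cells 14 rose and 3 fell at 39 °C, and 12 rose and 3 fell at 37 °C. In the same comparisons 29.2% of all genes were called higher and 29.8% lower at 39 °C, and 30.9% and 31.8% at 37 °C. Between 39 °C and 37 °C none of the 24 was called by edgeR, with 1 at an unadjusted p under 0.05 and 0 by DESeq2. The shares over all genes were 0.758%, 7.96% and 1.07% in the same order. A positive log2 fold change was found for 22 of the 24 and for 6811 of 13328 genes tested. It was found for 58 of the 88 tested pathway genes, which include the 24. The median was 0.063 over the 24 against 0.0041 over all genes tested. The 24 genes come from the same libraries and are a single list among several, so the count is a description and was not tested. The 3 libraries at 39 °C were all above those at 37 °C for 8 of the 24 and all below for 0, where 10.7% of all genes were above and 10.3% below. Among the members, the translocon genes Ssr1, Sec61a1, Sec61b and Sec61g had log2 fold changes of -0.020, -0.015, 0.079 and 0.14 in the same comparison.

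Of the 9 genes of glycan trimming and quality control, 5 rose and 1 fell at 39 °C against naive cells, and 6 rose and 1 fell at 37 °C, the fall being that of Ngly1. Beside these counts, 29.2% of all genes were called higher and 29.8% lower at 39 °C, and 30.9% and 31.8% at 37 °C.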
